A study of Mus musculus with 2 samples.

Results

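The transcripts described here are those of 10 genes that drive or brake the cell division cycle: the cyclins Ccna2, Ccnb1, Ccnd1, Ccnd2, Ccnd3, Ccne1 and Ccne2, the cyclin-dependent kinases (CDKs) Cdk1 and Cdk2, and the CDK inhibitor Cdkn1b, which encodes p27. They were chosen by gene symbol, and all 10 were found among the 23889 symbols measured. The cells were mouse embryonic stem cells (mESCs) of the E14 line, labelled as derived from a 19/Ola mouse and grown without feeders in medium with serum and LIF, the cytokine that holds mESCs in self-renewal. One culture was transfected with a control shRNA (genotype "Normal") and the other with an shRNA against the deubiquitinase USP21 (genotype "USP21 knockdown"), and both were harvested after 3 days. Each group is 1 RNA-seq library, so no value below has a replicate error and no test of a difference was possible. The labels give neither which USP21 shRNA was used nor what share of the cells took it up.

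Progress through the cell cycle depends on CDKs, which become active when a cyclin binds them. D-type cyclins join Cdk4 and Cdk6 in G1 and start the phosphorylation of the retinoblastoma protein, E-type cyclins join Cdk2 at the G1/S boundary, cyclin A serves Cdk2 in S phase and later Cdk1, and cyclin B joins Cdk1 to bring cells into mitosis. Inhibitors of the Cip/Kip family, among them p27, bind cyclin-CDK complexes, and the SCF ubiquitin ligase with its substrate receptor Skp2 marks p27 for degradation. Mouse ESCs are known for a short G1 phase and for high cyclin E-Cdk2 activity with little oscillation.

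Genes of S phase and mitosis share short promoter elements, and sequence is shown for a selection of the matches to them, in Cdk1, Cdk2 and Ccnb1. In the RefSeq promoter table (GRCm38.p6, from 250 bases before to 50 after each RefSeq start, which can differ from the gene ends given further on) 6 of the 10 members had an entry (Ccnb1, Ccnd3, Ccne1, Cdk1, Cdk2 and Cdkn1b), with 7 promoters in all, 2 of them for Ccnd3. Both strands were searched for the CHR element (TTTGAA or TTCGAA), for E2F sites (TTTCGCGC, TTTGGCGC or TTTCCCGC) and for the CCAAT box (CCAAT), and none of the matches to different elements overlapped in the members. The windows are written 5′ to 3′ on the strand of the gene, with the matched letters in capitals:

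Cdk1, CHR element starting 71 bases before the start, chr10:69352966-69352995, minus strand: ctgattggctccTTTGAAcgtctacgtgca

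Cdk1, CHR element starting 15 bases before the start, chr10:69352910-69352939, minus strand: taccgcggcgagTTTGAAactgctggcact

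Cdk1, E2F site starting 131 bases before the start, chr10:69353025-69353054, minus strand: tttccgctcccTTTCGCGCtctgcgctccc

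Cdk2, E2F site on the opposite strand starting 140 bases before the start, chr10:128705173-128705202, minus strand: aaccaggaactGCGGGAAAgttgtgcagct

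Ccnb1, CCAAT box starting 99 bases before the start, chr13:100786569-100786598, minus strand: ggaacccgcggcgCCAATgggaagagagcg

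Ccnb1, CCAAT box starting 67 bases before the start, chr13:100786537-100786566, minus strand: tgccacgaactggCCAATgaggagcgagcg

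Of the members with a promoter entry, Cdk1 alone held CHR letters, with 2 matches, while 19.2% of all 32851 promoters held at least 1. E2F letters were in Cdk1 and Cdk2, against 1.84% of all promoters. CCAAT letters were the most common of the 3 elements and stood in 37.4% of all promoters, with 3 matches each in Cdk1 and Cdkn1b, 2 in Ccnb1, and 1 each in Cdk2 and 1 of the Ccnd3 promoters. The Ccne1 promoter held none of the letters searched. A match is only a description of the letters, and no match says nothing about the factor.

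As a check of the labels, Usp21 itself had an FPKM (fragment count scaled for transcript length and sequencing depth) of 26.2 in control cells and 3.49 after knockdown, 7.33 times lower on the scale used for the members. The summed FPKM was 613617 and 543206, and single-fragment steps in the values of 1439 weakly expressed genes gave the control library about 1.24 times as many fragments. All 14 markers of mESCs on the list used here reached an FPKM of 1, and their summed FPKM was 4869 in the control library and 3793 in the knockdown library. Dppa5a alone made 1849 and 1285 of these sums. Of the 14, 12 were lower in the knockdown library, against 49.6% of all genes that reached an FPKM of 1 in either library. Utf1 and Fgf4 were higher. The median log2 ratio of the 14 (defined below) was -0.23. Most of the 14 had a mean FPKM of at least 50, and the 1881 genes at that level had a median of -0.13. Scaling both libraries to equal sums adds about 0.18 to such a ratio. The ratios of Klf4 (-0.15), Sox2 (-0.14), Lin28a (-0.13) and Tbx3 (-0.12) were smaller in size than that. Of 10 fibroblast or feeder markers, 8 were under 1 in both libraries and Lum was at 0, but Thy1 was at 17.3 and 5.29. The part of such differences in the values of the cell cycle genes was not tested.

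The quantity compared is the log2 ratio of the knockdown library over the control library, computed after adding 0.1 to each FPKM, and folds are given on the same scale. A gene is counted as called when this fold was at least 1.5 in either direction, which describes 2 libraries and is not a test. Among the 11927 genes that reached an FPKM of 1 in either library, 7.77% were called higher and 6.46% lower in the knockdown library. All 10 members passed this filter, and 1 was called higher (Ccnd2) and 2 lower (Cdk1 and Ccne2). None of the 10 reached a fold of 2, against 2.3% of all genes higher and 2.03% lower. The median log2 ratio was -0.20 over the members and 0.0031 over all genes, and 7 of the 10 members were below 0, against 49.6% of all genes. In a culture studied in bulk, fewer cells in a cell cycle phase and less RNA per cell in that phase cannot be told apart.

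**Figure D1:**
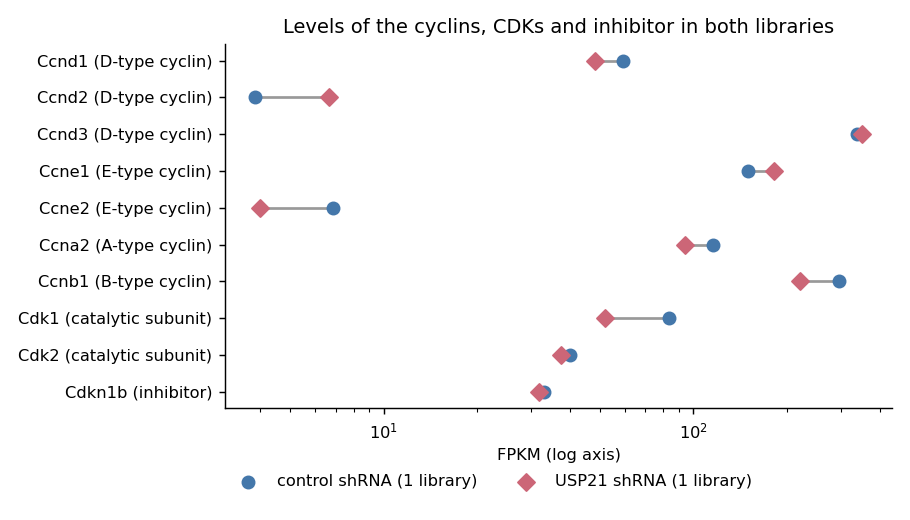
FPKM (log axis) of each of the 10 genes in the control shRNA library (blue circle) and the USP21 shRNA library (red diamond), 1 library per group and so no error bars, with a grey line joining the 2 values. The 10 genes span from under 10 FPKM (Ccnd2 and Ccne2) to 350.5 (Ccnd3), and the longest lines are those of Ccnd2, Ccne2 and Cdk1.

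The D-type cyclins link growth signals to the cycle, and one of them made up most of their transcript. Ccnd3 (chromosome 17, 47505051 to 47599691, plus strand; GRCm38, GENCODE M21, as for all gene positions here) had an FPKM of 338.3 in control cells and 350.5 after knockdown, the highest level of the 10 members in both libraries. Of the genes past the filter, 98.0% were below it in the control library and 98.3% in the knockdown library. Ccnd1 (chromosome 7, 144929931 to 144939925, minus strand) had an FPKM of 59.3 and 48.3, a log2 ratio of -0.30. Ccnd2 (chromosome 6, 127125162 to 127152193, minus strand) was the least abundant of the family, with an FPKM of 3.85 and 6.65. Its log2 ratio of 0.77, a fold of 1.71, was the only call of a higher level among the members, and 95.6% of all genes past the filter had a lower ratio.

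The differences in the 3 genes nearly cancelled in the family total. The summed FPKM of the D-type cyclins was 401.5 in control cells and 405.5 after knockdown, a log2 ratio of 0.014. Ccnd3 held 84.3% of that sum in the control library and 86.4% in the knockdown library. The share of Ccnd1 was 14.8% and 11.9%, and that of Ccnd2 0.959% and 1.64%. Such shares are taken within 1 library and do not depend on how the libraries are scaled to each other. The Ccnd1 transcript was 15.4 times as abundant as that of Ccnd2 in the control library and 7.26 times in the knockdown library.

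The E-type cyclins, which activate Cdk2 for entry into S phase, stood in opposite directions. Ccne1 (chromosome 7, 38097984 to 38107534, minus strand) had an FPKM of 150.0 in control cells and 181.9 after knockdown. Its log2 ratio of 0.28, a fold of 1.21, was under the 1.5-fold line. Ccne2 (chromosome 4, 11191351 to 11204779, plus strand) had an FPKM of 6.86 and 4.0. Its log2 ratio of -0.77 was the lowest of the 10, a level 1.70 times lower, and 3.75% of all genes had a lower ratio. Ccne1 was 21.9 times as abundant as Ccne2 in the control library and 45.5 times in the knockdown library, and its share of their sum was 95.6% and 97.9%. Because Ccne1 carried nearly all of it, the sum of the E-type cyclins followed Ccne1, with an FPKM of 156.9 and 185.9.

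**Figure D2:**
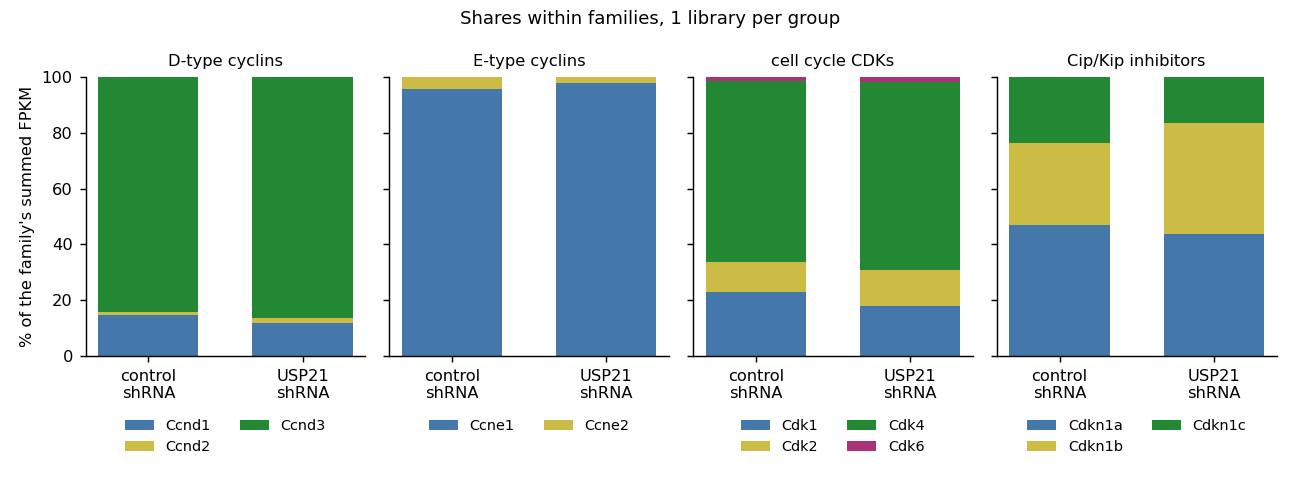
Share (%) of each gene in the summed FPKM of its family, for the control shRNA library (left bar of each pair) and the USP21 shRNA library (right bar). Ccnd3, Ccne1 and Cdk4 hold the largest share of their families in both libraries, and the share of Cdkn1b among the Cip/Kip inhibitors goes from 29.6% to 39.6%.

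The cyclins of S phase and mitosis and their kinase Cdk1 were all lower in the knockdown library, though Cdk1 alone passed the 1.5-fold line. Ccna2 (chromosome 3, 36564865 to 36572150, minus strand), which serves in both S phase and G2, had an FPKM of 115.7 and 93.9, a log2 ratio of -0.30. Ccnb1 (chromosome 13, 100778650 to 100786570, minus strand), the main mitotic cyclin, had an FPKM of 296 and 222, a log2 ratio of -0.42. Of the 31-base words in the Ccnb1 transcript 46.9% also occur in other annotated genes, with Ccnb1-ps the first of them, and none of the genes with over 1% of its words has a row of its own in the files, so how such fragments entered the Ccnb1 value is not known. The same holds for 14.1% of the words of Ccnd3, shared with Ccnd3-ps. No other member shared as much as 1% of its words. Genes on the opposite strand cover 21.9% of the exon bases of Ccnd1, 14.8% of Ccnd3, 10.5% of Ccne2, 10.4% of Ccna2 and 5.54% of Ccnd2, and whether strand was used in counting is not stated.

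Cdk1 (chromosome 10, 69335146 to 69352938, minus strand), the kinase that brings cells into mitosis and whose promoter carries the CHR and E2F letters shown above, had an FPKM of 83.3 in control cells and 52.0 after knockdown. Its log2 ratio was -0.68, a level 1.60 times lower, and 4.79% of all genes had a lower ratio. Cdk2 (chromosome 10, 128697939 to 128705031, minus strand), the partner of cyclins E and A, had an FPKM of 40.1 and 37.5, a log2 ratio of -0.10. Cdk1 was 2.08 times as abundant as Cdk2 in the control library and 1.39 times in the knockdown library. In the 4 kinases that drive the cycle, Cdk4 had the highest level at 236 and 196, and Cdk6 the lowest at 5.70 and 4.67. Cdk1 held 22.8% of their sum in the control library and 17.9% in the knockdown library, while the share of Cdk2 was 11.0% and 12.9%.

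Cdkn1b (chromosome 6, 134920401 to 134925513, plus strand) was, like Ccnd3, at nearly the same level in both libraries, with an FPKM of 32.9 and 31.7. Its log2 ratio was -0.052, and 43.1% of all genes had a lower one. The other inhibitors past the filter had a lower level in the knockdown library. Cdkn1a (p21), a target of p53, had an FPKM of 52.0 and 35.0, a level 1.48 times lower and just short of the line. Cdkn1c (p57), an imprinted gene, had 26.1 and 13.3 and was called lower with a log2 ratio of -0.97. Cdkn2a, which encodes p16 and p19Arf from shared exons, had 11.8 and 5.80 and was called lower at -1.02. Cdkn2b (p15) was also called lower, with 1.97 and 0.935. Cdkn2d (p19) was at 2.88 and 2.53, and Cdkn2c (p18) was under 1 in both libraries. With Cdkn1b nearly level and its relatives lower, Cdkn1b made up 29.6% of the summed Cip/Kip transcript in the control library and 39.6% in the knockdown library.

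Skp2, the receptor through which the SCF ligase recognises p27, had an FPKM of 11.5 in control cells and 28.8 after knockdown. This fold of 2.49 was the highest on the list of ubiquitin ligases of cyclins and p27, where 1 of 23 genes past the filter was called higher and 0 lower. With both libraries scaled to equal sums 3 of the 23 were called higher, Skp2, Fbxo31 (0.63) and Anapc1 (0.59). At that setting 1654 of all 11927 genes were called higher. Anapc1 was at 0.16 with a correction for transcript length. The median of the ligase list was -0.052, and it turned to 0.12 with equal sums and to 0.031 with the length correction. The median of all genes was 0.18 with equal sums and -0.0040 with the length correction. As deposited, Cdc26, a subunit of the anaphase-promoting complex that marks cyclins A and B, followed Skp2 at -0.52. Fbxo31, a receptor for cyclin D1, was at 0.45. The partners of Skp2 in the recognition of p27 stood closer to their control values. Its cofactor Cks1b was at 157 and 156, the scaffold Cul1 at 45.1 and 52.1, and the adaptor Skp1a at 269 and 202. Fbxw7, the receptor that brings cyclin E to the same ligase, had 10.4 and 11.5. Of the Cks1b words 23.7% are shared with copies of the gene, and of the Cdc26 words 21.6%. The Cdkn1b transcript was 2.86 times as abundant as that of Skp2 in the control library and 1.10 times in the knockdown library. Levels of the p27 protein were not measured in these files.

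The members differed in level, and genes of different level differed in how far their ratios spread. Ccnd1, Ccnd3, Ccne1, Ccna2, Ccnb1 and Cdk1 had a mean FPKM of at least 50. The median log2 ratio of the 1881 genes at that level was -0.13, the range from the 5th to the 95th percentile ran from -0.53 to 0.33, and 3.78% were called lower. Of the 6 members, Cdk1 alone lay outside this range. Ccnd2 and Ccne2 belonged to the 5075 genes with a mean FPKM from 1 to 10, whose range ran from -0.79 to 0.87, with 11.5% called higher and 8.36% lower, and both lay inside it. Cdk2 and Cdkn1b lay inside the range of the 4686 genes from 10 to 50, from -0.53 to 0.56.

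Transcript length also moved with the ratio. Over 11378 genes with an annotated length, Spearman's rho between length and log2 ratio was 0.32 (across genes, which share the same libraries). With the genes split by length into 5 groups of like size, the median ratio was -0.16 in the group of the shortest transcripts and 0.17 in that of the longest. Ccnd2 (6330 bases) was in the latter, and its ratio less the trend at its length was 0.61, closer to the 1.5-fold line. The annotated Cdk1 transcript has 4375 bases, a length at which the trend was 0.078, so that its corrected ratio was -0.76. Ccne2 (3006 bases) was at -0.77 with and without the correction. Apart from Ccnd2 no member moved by over 0.1 with this correction, and none changed direction. The part of RNA quality or fragment size in this trend was not tested.

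**Figure D3:**
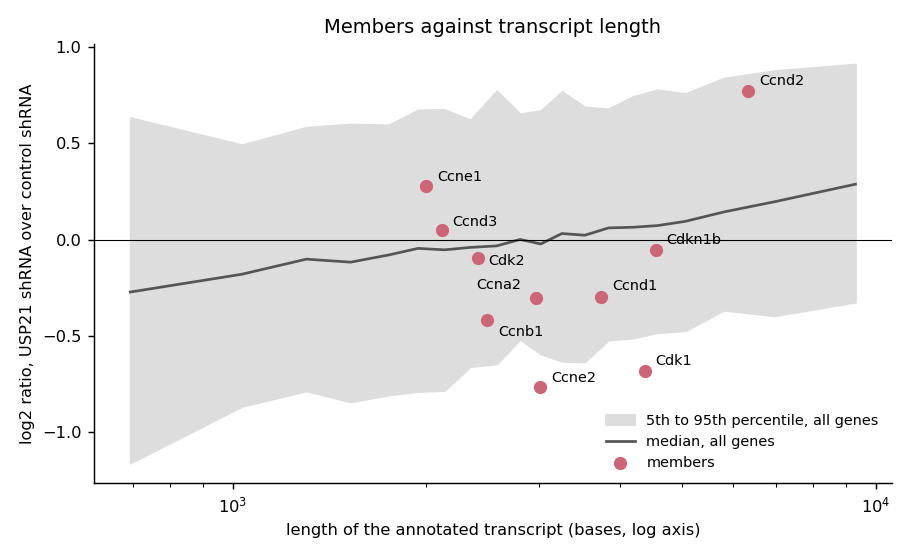
Log2 ratio (USP21 shRNA over control shRNA) of the 10 members (red) against the length of 1 annotated transcript per gene in bases (log axis), with the median (line) and the 5th to 95th percentile (grey) of all genes in 20 length bins. The grey band and its median go up with length, Ccne2 and Cdk1 lie below the band, and Ccnd2 lies inside it at the long end.

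The scaling between the libraries set the direction of the small ratios of Cdk2 and Cdkn1b. Rescaling both libraries to an equal sum of FPKM moved the median log2 ratio of all genes to 0.18 and that of the members to -0.020, and made 78.1% of all called genes higher ones, against 54.6% as deposited. On the rescaled values Cdk2 and Cdkn1b turned from just below 0 to 0.080 and 0.12, and Cdk1 came to -0.50, short of the line. Ccnd2 (0.95) and Ccne2 (-0.59) were still past it, and the other 5 kept their direction.

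**Figure D4:**
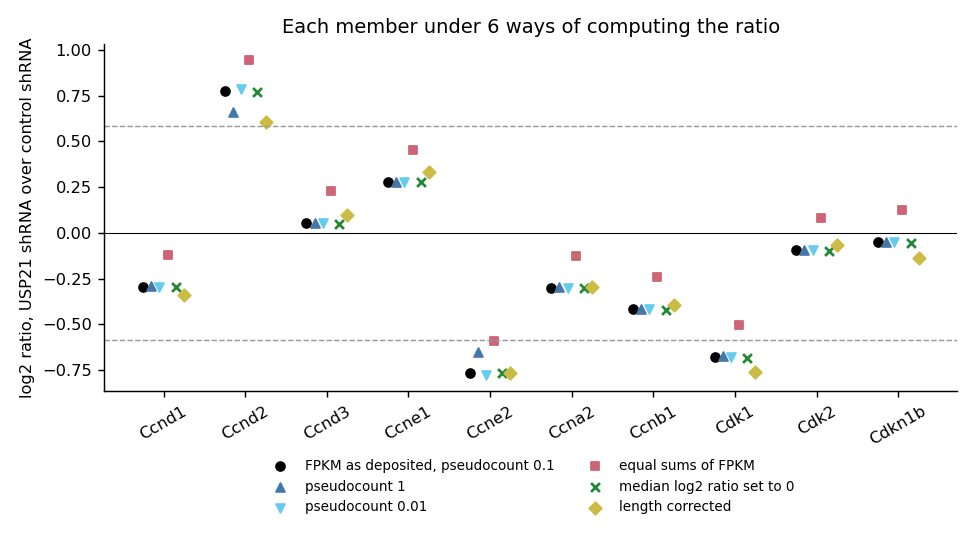
Log2 ratio of each member (horizontal axis) as deposited (black circle) and under 5 other ways of computing it, with dashed lines at a fold of 1.5. Ccnd2 and Ccne2 are past the line in all 6, Cdk1 in 5 of 6, and Cdk2 and Cdkn1b are above 0 only with equal sums of FPKM (red square).

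Other core genes were also measured at lower levels in the knockdown library, 4 of them past the line. On a list of 12 other core cyclins, CDKs and inhibitors, 10 passed the filter, and all 10 had a ratio below 0, with a median of -0.51. This held as deposited and under each of the 5 other ways of computing the ratio. Of all genes 49.6% were below 0 as deposited and 6.46% were called lower. With equal sums 3489 of all 11927 genes were below 0 and 463 called lower. With the length trend removed 5758 of 11378 were below 0 and 673 called lower. The ratio closest to 0 was that of Cdkn2d, at -0.18 and at -0.010 with equal sums. The 4 called lower were Cdkn1c, Cdkn2a and Cdkn2b, described above, and Ccna1, a cyclin best known from male germ cells, at 1.77 and 0.392. Ccnb2, the second B-type cyclin, had an FPKM of 120.1 and 96.3, a log2 ratio of -0.32 that stood beside the -0.42 of Ccnb1. Ccnf, which serves as an F-box protein, had 98.8 and 72.2, a log2 ratio of -0.45. Cdk4, the partner of the D-type cyclins, had a ratio of -0.26 and Cdk6 of -0.28, which came to -0.60 with the length trend removed and made it the fifth gene called lower. Opposite-strand genes cover 31.2% of the exon bases of Cdk4 and 30.3% of those of Cdkn1c. Ccnb3 and Cdkn2c did not pass the filter.

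Genes that act in the phases the members control were counted next. Of 22 genes of G2 and mitosis, 0 were called, 16 were below 0, and the median was -0.16. Many of the 22 had a mean FPKM of at least 50, a level at which the median of all 1881 genes was -0.13. The largest ratios on the G2/M list were -0.48 for Cenpf and for Mad2l1, which act at kinetochores and in the spindle checkpoint. Foxm1, a transcription factor for mitotic genes, followed at -0.45. With equal sums 9 of the 22 were below 0 and the median was 0.014. Over all genes 3489 of 11927 were then below 0 and the median was 0.18. With the length trend removed 20 of the 22 were below 0, and Cenpf and Mad2l1 were called lower. Over all genes 5758 of 11378 were then below 0 and 673 were called lower. Of 20 G1/S genes, 1 was called higher and 0 lower, 15 were below 0, and the median was -0.074. The gene called higher was Rrm2, a subunit of ribonucleotide reductase, at 110.0 and 172.9 (15.4% of its words shared with copies). Next were Slbp, which binds histone mRNA, and Gmnn, the inhibitor of licensing, at -0.41 and -0.36. With equal sums 6 of the 20 were below 0 and the median turned to 0.10, where that of all genes was 0.18. With the length trend removed 13 of the 20 were below 0.

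**Figure D5:**
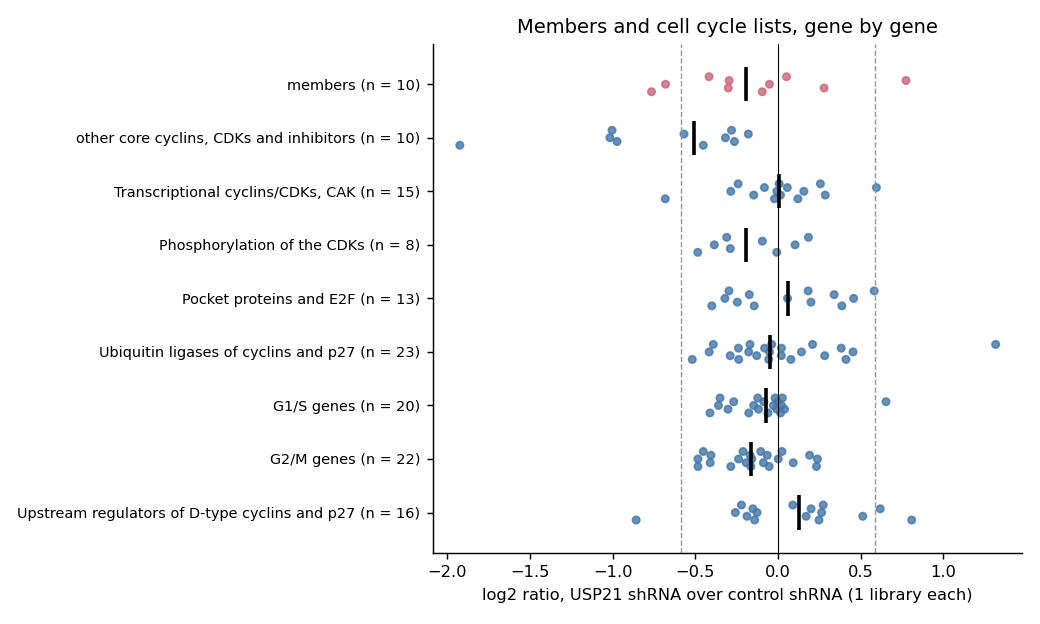
Log2 ratio of each gene past the filter (points), by list, with the list's median (black bar) and dashed lines at a fold of 1.5; CAK is the CDK-activating kinase, and 1 library per group gives no error. The other core cyclins, CDKs and inhibitors all lie below 0, Rrm2 is the 1 gene of G1/S and Skp2 the 1 ubiquitin ligase past a line, and the G2/M genes reach -0.48 with a median of -0.16.

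Of 8 genes that set or follow CDK phosphorylation, 0 were called, 6 were below 0 and the median was -0.19. The largest ratios were those of Cdkn3 (-0.49) and Cdc25c (-0.39), both phosphatases of CDKs, and Cks2 (-0.31), which shares 31.7% of its words with copies. With equal sums the median was -0.017, where that of all genes was 0.18. Of 13 pocket proteins and E2F factors 0 were called and the median was 0.057, which turned to -0.053 with the length trend removed and was 0.23 with equal sums. E2f6, a repressor, was next to the line at 0.58, followed by Rb1, the retinoblastoma protein, at 0.46 and E2f2 at -0.40. E2f6 (0.76) and Rb1 (0.63) were called higher with equal sums, as were 1654 of all 11927 genes. E2f6 (0.61) was called higher with the length trend removed, as were 809 of all 11378 genes. Of 15 genes of the transcriptional cyclins and CDKs and the CDK-activating kinase, 1 was called higher and 1 lower, with a median of 0.0065, which was 0.18 with equal sums. Ccnh, the cyclin of the CDK-activating kinase, had 26.4 and 16.4, while its partners Cdk7 and Mnat1 had ratios of 0.0065 and -0.082. The ratio of Ccnh was -0.68, and with equal sums it was -0.51 and no longer called. Ccnt1, a partner of Cdk9, had 10.8 and 16.3, a fold of 1.51, and was under the line with a pseudocount of 1 (0.56) and once the length trend was removed (0.39).

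Among 16 genes upstream of D-type cyclins and p27, 2 were called higher and 1 lower, with a median of 0.13. With equal sums 3 were called higher, beside 1654 of all 11927 genes, and the median was 0.30, where that of all genes was 0.18. With the length trend removed 1 was called higher, beside 809 of all 11378 genes, and the median was 0.020. The gene called lower was Nanog, the pluripotency factor, which had an FPKM of 467 and 258, and 10.7% of its words occur in other genes. Myc, whose product acts on the Ccnd2 gene among others, was at 26.7 and 22.8, and Mycn, on the same list, at 23.8 and 26.8. With equal sums the log2 ratio of Myc was -0.046 and that of Mycn 0.34.

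The members were also set beside every symbol of their families. Of 26 cyclin symbols and 19 CDK symbols in the files, 24 and 17 passed the filter. The 7 cyclin members held 58.6% of the summed FPKM of all cyclin symbols in the control library and 60.4% in the knockdown library. Ccnd3 and Ccnb1 ranked 1st and 2nd of the 26 in both libraries, Ccne1 went from rank 4 to rank 3, Ccna2 stayed at rank 6, Ccne2 went from 19 to 22 and Ccnd2 from 23 to 19. Cdk1 ranked 2nd of the 19 CDK symbols in both, after Cdk4. Of the 15 CDK symbols past the filter that are not members, 0 were called, and their log2 ratios ran from -0.28 to 0.32, so that Cdk1, at -0.68, was the lowest of the 17.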

How the data were processed

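RNA of 2 E14 cultures was sequenced, 1 library per group. The deposited files give FPKM by gene symbol, 1 value for each library. The submitters' processing notes name CASAVA 1.8.2, TopHat2 2.0.14, Cufflinks 2.2.1 and the build mm9, without roles; annotation, strand and filters are not given in the sources used here. Such values depend on how fragments of shared or overlapping sequence were divided. The files hold no counts, so no interval, floor or count model was computed; the relative depth came from single-fragment steps of values under 0.1.

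For all symbols 0.1 was added to both FPKM values and the log2 of their ratio (knockdown over control) was taken; a gene was called at a fold of 1.5 if it reached an FPKM of 1 in either library. Alternatives were pseudocounts of 1 and 0.01, equal sums, median set to 0, a lowess correction for transcript length (span 0.3), a fold of 2, no filter and a filter of 5. Length, position, shared 31-base words and overlap came from GENCODE M21 (GRCm38; 1 transcript per gene, the longest coding sequence; 95.4% of filtered genes had one), and promoters from RefSeq. No file coordinates exist, so builds were not mixed. Protein sequence features were planned and not analysed here. Some genes that the rule below would name are not reported here.

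Named were all members, Usp21, every core gene listed, at most 3 genes of each other list with the largest ratios, and genes needed for a small count. Skp2 partners, Fbxw7, Myc, Mycn, neighbours of Ccnh and single markers were chosen after their values were seen. The members, the lists and the named genes were chosen with earlier results of these data known. Scripts were tested on simulated data. Python 3.11.15, numpy 2.4.6, pandas 2.3.3, statsmodels 0.14.6 and matplotlib 3.10.9 were used.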

Additional observations from a re-analysis of the deposited data

How the results depend on the processing

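With 1 library per group no replicate could be left out, and no paired analysis was possible because each group has 1 library. A log2 ratio was taken as moved when it changed by more than 0.1, since no replicate spread exists. With equal sums of FPKM the members called lower were 1 in place of 2, their median log2 ratio was -0.020 in place of -0.20, and the median of the other core cyclins, CDKs and inhibitors was -0.34 in place of -0.51. With a fold of 2 the members called higher and lower were 0 and 0. With an FPKM filter of 5 the other core genes called lower were 2 of 7 in place of 4 of 10, and with no filter their median was -0.39. These core genes called lower were 5 with the length correction and 3 with a fold of 2, within 1.5 times the count of 4. The remaining medians of the members and of these core genes moved by less than 0.1. Of the ratios of 17 genes (the members, Usp21, Skp2, Cdkn1a, Cdkn1c, Cdkn2a, Cdkn2b and Ccna1), 17 moved with equal sums, 5 with a pseudocount of 1, 3 with the length correction and 1 with a pseudocount of 0.01, and no called ratio changed sign. Depth per gene is unknown. The ratio of Ccna1, at FPKM under 2, ran from -2.14 to -0.99 with the pseudocount.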

Other observations

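Cyclins outside the core lists were looked at after their values were seen. Ccng1, a target of p53, had an FPKM of 167.6 in control cells and 119.4 after knockdown, the third highest of the 26 cyclin symbols in the control library, with a log2 ratio of -0.49. Ccng2, linked to cell cycle arrest, had 4.91 and 2.56, a log2 ratio of -0.91. Ccnj had 4.73 and 6.60, a log2 ratio of 0.47, and Ccni, Ccny and Ccnyl1 had ratios of 0.085, 0.16 and 0.22. Of the 17 cyclin symbols past the filter that are not members, 1 was called higher (Ccnt1) and 3 lower (Ccna1, Ccng2 and Ccnh), and their median was -0.022.

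Markers of other lineages that mESCs can form were measured as well. The summed FPKM of 7 early mesoderm markers was 3.54 and 4.89, that of 6 trophoblast markers 12.7 and 16.3, that of 7 primitive endoderm markers 50.2 and 44.0, and that of 6 neural markers 46.3 and 31.2, of which Tubb3 alone made 38.5 and 20.4. In each of the mesoderm, trophoblast and neural lists 3 genes passed the filter. Hand1 had 0.403 and 1.25, Eomes 1.20 and 1.40, and Mixl1 1.06 and 0.613. Tfap2c made 8.83 and 11.4 of the trophoblast sum, and Gata3 had 0.547 and 1.36. The neural genes Sox1, at 6.08 and 8.30, and Nes, at 1.71 and 2.42, went the other way from Tubb3. Of the primitive endoderm sum Dab2 made 23.1 and 16.4, while Gata6 had 8.60 and 10.8. Sox7 had 4.68 and 1.97, and Pdgfra 2.48 and 4.22. Hand1, Gata3 and Pdgfra were called higher, and Mixl1, Tubb3 and Sox7 lower, beside 7.77% and 6.46% of all genes. The summed FPKM of all symbols was 613617 and 543206.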
